A study of Mus musculus with 12 samples.

Results

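Brain endothelial cells line the capillaries of the brain and form the blood-brain barrier. They are sealed to each other by tight junctions, respond to vascular endothelial growth factor (VEGF) and angiopoietins made by neighbouring cells, and carry selected molecules across the vessel wall with dedicated transporters. The 9 genes described here are known for this cell type: Cldn5, Pecam1 and Esam of the cell junctions, the VEGF receptor genes Flt1 and Kdr, the angiopoietin receptor gene Tek, the secreted factor gene Egfl7, the surface protein gene Ly6c1 and the transporter gene Slco1a4. They are 9 of the 55862 entries of the deposited expression table, 1 entry each. They were chosen by name, with earlier results of these data known.

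RNA was sequenced from brain cells of C57BL/6 mice in 12 libraries, 3 in each of 4 groups. AST were astrocytes at 0 days of incubation, the negative control, and A-iSCs were cells induced from such astrocytes by 5 days of incubation in 3D spheres. P56-NSC and P0-NSC were neural progenitor cells taken from the brain, the positive controls, named in the design text as P56-NPCs and P0-NPCs. The labels do not spell out P56 and P0, which in mouse work usually stand for postnatal days, those of an adult and of a newborn. The labels give no genotype or agent, no sort of the cells, and do not say whether separate cultures or animals gave the libraries of a group. The p-values therefore refer to the spread among these libraries only, and that spread may be technical. Levels are FPKM, fragments scaled by gene length and sequencing depth, as the authors normalized them, and are given as the mean ± SD of 3 libraries. Differences between groups were taken on log2(FPKM + 1), with standard errors, from 1 limma fit of all 12 libraries over 15747 genes, and a gene was called at an adjusted p below 0.05. On this scale the changes of genes below a few FPKM are understated, so ratios of mean FPKM are given beside them.

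Between 17077780 and 24452419 reads were recovered per library, so that a single read of a 1 kb gene equals 0.0343 to 0.0623 FPKM. The marker genes of the labelled cells were detected in all 4 groups: Gfap, the intermediate filament gene of astrocytes, was at a mean of 29.9 FPKM in AST, 970.0 in A-iSCs and 211 in P56-NSC, and the progenitor transcription factor gene Sox2 at 84.5 to 208. Of 7 astrocyte markers, 7 were higher in P56-NSC than in AST (median log2 difference 3.90), beside 37.1% of all genes tested. Of the 7, 0 had their highest mean in AST, against 31.5% of all genes tested. The progenitor filament gene Nes was at 196 FPKM in AST, its highest mean, 3.76 in P56-NSC, where the myelin gene Mbp was at 5271, and at 26.9 in P0-NSC. Scaling the libraries by total reads instead of the authors' scale moved the median of all genes by 0.18, -0.28 and 0.24 (log2) for A-iSCs, P56-NSC and P0-NSC against AST.

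The highest mean of 8 of the 9 genes was in P0-NSC, against 26.4% of all genes tested, and Slco1a4 had its highest mean in AST. In P0-NSC the order of the levels was Cldn5 (50.8 FPKM), Esam (7.55), Kdr (7.31), Egfl7 (6.27), Pecam1 (4.37), Ly6c1 (3.57), Tek (3.37), Flt1 (1.86) and Slco1a4 (1.28). The libraries of neighbours in this order overlapped, apart from Cldn5 with Esam, Egfl7 with Pecam1 and Tek with Flt1. In AST the order was another, with Kdr (2.46 FPKM), Esam (2.21) and Slco1a4 (1.38) at the top and Cldn5 without a read. All 9 genes passed the filter of 1 FPKM in 3 libraries. Pecam1 and Tek passed it through P0-NSC alone, and Cldn5 and Egfl7 through the NSC groups, so that these 4 had to differ between groups in order to be tested.

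**Figure D1:**
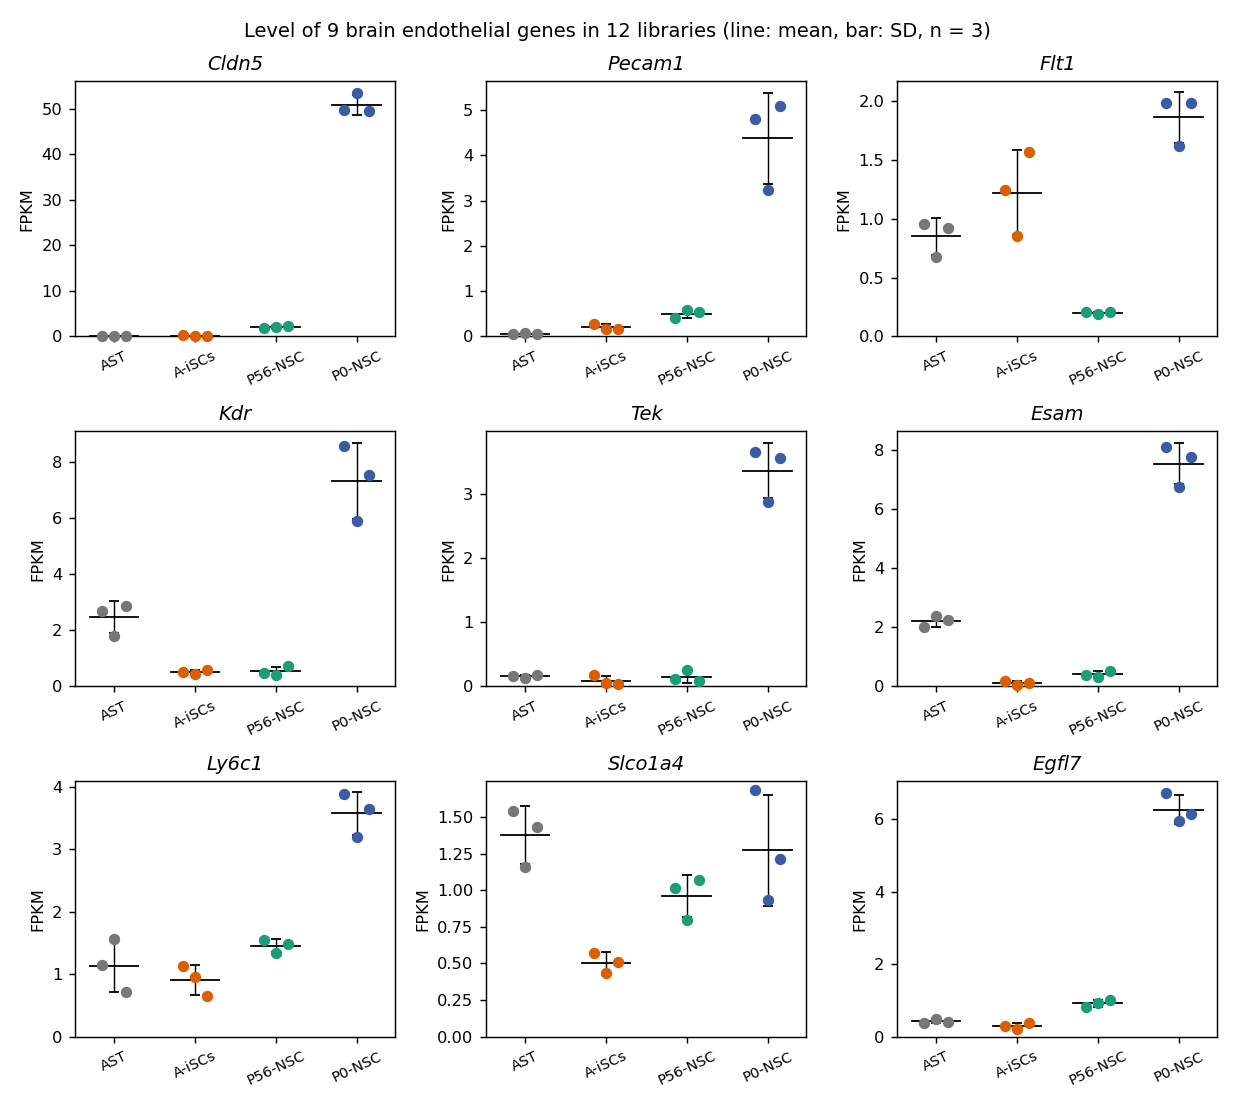
FPKM (y axis, a scale of its own in each panel, from 0) of the 9 endothelial genes in the 12 libraries, by group (x axis). Points are libraries, lines are group means and bars are SD of 3 libraries. The P0-NSC libraries lie above those of AST for 8 genes, as for 38.8% of all genes tested, and for Slco1a4 they overlap those of AST and P56-NSC. Among the 8, Pecam1 and Tek passed the filter through P0-NSC alone, which set their direction.

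The stretch around the transcription start is shown for 4 of the genes whose levels are described next, chosen as the gene with the widest range between groups and the genes of the receptors for VEGF and angiopoietin. RefSeq promoters (GRCm38.p6, 250 bases before to 50 after the start) matched 7 of the 9 genes. They were searched on both strands for CCGGAA and CAGGAA, forms of the core bound by ETS transcription factors, which act in endothelial cells. Capitals mark the matches, written on the gene's strand, with TTCCGG or TTCCTG where the match is on the opposite strand. The windows are chr16:18776597-18776896 (plus strand) for Cldn5, chr5:147725962-147726261 (minus strand) for Flt1, chr5:75978406-75978705 (minus strand) for Kdr and chr4:94739039-94739338 (plus strand) for Tek.
Cldn5: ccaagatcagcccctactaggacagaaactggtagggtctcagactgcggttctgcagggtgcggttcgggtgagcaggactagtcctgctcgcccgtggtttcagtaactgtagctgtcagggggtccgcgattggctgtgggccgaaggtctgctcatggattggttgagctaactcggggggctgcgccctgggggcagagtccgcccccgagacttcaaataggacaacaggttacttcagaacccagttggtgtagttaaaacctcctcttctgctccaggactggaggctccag
Flt1: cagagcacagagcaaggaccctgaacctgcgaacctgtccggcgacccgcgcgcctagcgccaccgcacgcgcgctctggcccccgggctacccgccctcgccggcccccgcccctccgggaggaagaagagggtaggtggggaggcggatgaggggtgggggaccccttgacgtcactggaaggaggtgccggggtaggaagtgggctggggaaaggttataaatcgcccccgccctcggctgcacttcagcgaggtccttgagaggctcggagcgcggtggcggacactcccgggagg
Kdr: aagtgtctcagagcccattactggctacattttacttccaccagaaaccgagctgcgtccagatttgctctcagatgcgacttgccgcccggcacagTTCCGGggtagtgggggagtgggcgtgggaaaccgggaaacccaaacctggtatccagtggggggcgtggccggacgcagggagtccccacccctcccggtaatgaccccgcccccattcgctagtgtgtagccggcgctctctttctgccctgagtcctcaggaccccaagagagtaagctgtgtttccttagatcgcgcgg
Tek: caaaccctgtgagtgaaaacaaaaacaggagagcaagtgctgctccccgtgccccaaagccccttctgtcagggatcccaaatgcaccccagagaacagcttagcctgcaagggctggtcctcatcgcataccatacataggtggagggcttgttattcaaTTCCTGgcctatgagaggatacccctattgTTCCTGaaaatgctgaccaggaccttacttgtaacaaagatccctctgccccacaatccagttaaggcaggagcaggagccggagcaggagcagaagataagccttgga
Kdr held 1 match to CCGGAA, Tek 2 matches to CAGGAA, and Cldn5 and Flt1 none. At least 1 of both motifs stood in 3 of the 7 promoters (Kdr, Tek and Egfl7), against 41.4% of 32851 RefSeq promoters of the same length. The window used for Egfl7, not shown, was the nearest of 3. Its start lay 1069 bases from the 5' end of the gene in the deposited coordinates. The TATA box letters TATAAA stood in 2 of 7 (Flt1 and Ly6c1) against 13.6%, the SOX core ACAAT in 2 of 7 against 31.0%, the GATA motif AGATAA in 1 of 7 against 11.2%, and the GC box GGGCGG in 3 of 7 against 35.7%. No motif is contained in another, and with 7 promoters these counts describe the windows only.

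Cldn5 encodes claudin 5, the main sealing protein of endothelial tight junctions in the brain (ENSMUSG00000041378, chromosome 16: 18776847 to 18778262, plus strand, build GRCm38). No read was recovered in AST 1, 2 or 3, which allows a mean of up to 0.0381 FPKM (3 reads over the group). In A-iSCs 1 it was at 0.175 FPKM, from 5 reads, and in A-iSCs 2 and 3 at 0. P56-NSC 1, 2 and 3 were at 1.71, 2.11 and 2.14 FPKM (42 to 50 reads), and P0-NSC 1, 2 and 3 at 49.6, 53.4 and 49.4 FPKM (1608 to 2200 reads). The NSC groups did not overlap each other or the astrocyte-derived groups, while A-iSCs overlapped AST. P0-NSC (50.8 ± 2.24 FPKM) was at least 1333-fold higher than AST and 25.5-fold higher than P56-NSC (1.99 ± 0.243 FPKM), which was at least 52.2-fold higher than AST. The log2 differences were 5.69 ± 0.09 for P0-NSC against AST (limma adjusted p = 1.73e-12), 1.58 ± 0.09 for P56-NSC against AST (1.58e-08) and -4.12 ± 0.09 for P56-NSC against P0-NSC (1.23e-11). Between A-iSCs and AST it was 0.08 ± 0.09 (limma adjusted p = 0.505), from the 5 reads of a single library.

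Pecam1 encodes an adhesion molecule at the contacts between endothelial cells, also made by platelets and leukocytes (ENSMUSG00000020717, chromosome 11: 106654217 to 106750628, minus strand). In AST 1, 2 and 3 it was at 0.0479, 0.0713 and 0.0432 FPKM, from 5 to 9 reads each, and in A-iSCs at 0.279, 0.169 and 0.168. The P56-NSC libraries were at 0.398, 0.570 and 0.536 FPKM and those of P0-NSC at 4.81, 3.23 and 5.08. The 4 groups did not overlap, in the order AST, A-iSCs, P56-NSC and P0-NSC. P0-NSC was 80.8-fold higher than AST (log2 difference 2.33 ± 0.12, limma adjusted p = 7.53e-09) and 8.72-fold higher than P56-NSC, and P56-NSC was 9.26-fold higher than AST (0.51 ± 0.12, adjusted p = 0.00271), a call lost under quantile normalization (adjusted p = 0.252). The ratio of A-iSCs to AST was 3.79 and was not called (log2 difference 0.19 ± 0.12, limma adjusted p = 0.206). It was called in 4 of 21 other settings (adjusted p = 0.00382 to 0.708 over them). A-iSCs were lower than P56-NSC by limma (-0.32 ± 0.12, adjusted p = 0.0418), but not in 16 of 21 other settings (adjusted p = 0.00316 to 0.486).

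Esam encodes another adhesion molecule of endothelial junctions (ENSMUSG00000001946, chromosome 9: 37528078 to 37538319, plus strand). It was at 2.02, 2.39 and 2.23 FPKM in AST, 0.173, 0.0587 and 0.117 in A-iSCs, 0.402, 0.304 and 0.508 in P56-NSC. The P0-NSC libraries were at 8.11, 6.77 and 7.76. No pair of groups overlapped, and AST lay between P0-NSC and the other groups, unlike for Cldn5 and Pecam1. AST was 19.0-fold higher than A-iSCs, where 4 to 10 reads were recovered per library (log2 difference of A-iSCs against AST -1.53 ± 0.09, limma adjusted p = 7.25e-08). P0-NSC was 3.41-fold higher than AST (1.41 ± 0.09, limma adjusted p = 5.54e-08) and 18.6-fold higher than P56-NSC (-2.60 ± 0.09 for P56-NSC against P0-NSC, adjusted p = 4.46e-10).

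Flt1 and Kdr encode VEGF receptors, Kdr the main signalling receptor and Flt1 a receptor that also acts as a trap for the ligand, which macrophages can also make. Flt1 (ENSMUSG00000029648, chromosome 5: 147561604 to 147726011, minus strand) was at 0.954, 0.672 and 0.925 FPKM in AST, 1.24, 0.853 and 1.57 in A-iSCs, 0.205, 0.189 and 0.207 in P56-NSC. In P0-NSC the libraries were at 1.99, 1.62 and 1.99. P56-NSC lay below and P0-NSC above the libraries of all other groups, and AST and A-iSCs overlapped. It was 9.30-fold higher in P0-NSC than in P56-NSC (log2 difference of P56-NSC against P0-NSC -1.25 ± 0.12, limma adjusted p = 1.64e-06). Flt1, alone among the 9 genes, was called higher in A-iSCs than in P56-NSC (0.88 ± 0.12, limma adjusted p = 4.19e-05), 6.10-fold in mean FPKM. A-iSCs against AST was not called (0.25 ± 0.12, limma adjusted p = 0.0847), with a call in 5 of 24 other settings.

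Kdr (ENSMUSG00000062960, chromosome 5: 75932827 to 75978458, minus strand) was at 2.69, 1.81 and 2.87 FPKM in AST, 0.516, 0.433 and 0.582 in A-iSCs, 0.472, 0.421 and 0.713 in P56-NSC. The P0-NSC libraries were at 8.55, 5.87 and 7.52. P0-NSC was highest and AST next, with no overlap, while A-iSCs and P56-NSC overlapped at a low level. The fall from AST to A-iSCs was 4.81-fold (log2 difference -1.18 ± 0.15, limma adjusted p = 2.67e-05), and P0-NSC was 2.97-fold higher than AST (1.27 ± 0.15, adjusted p = 7.71e-06). A-iSCs and P56-NSC differed by -0.02 ± 0.15 (limma adjusted p = 0.917), a sign that was positive in 6 of the other settings. As FPKM, which is per length, the level of Kdr exceeded that of Flt1 in every library of AST, P56-NSC and P0-NSC, and the level of Flt1 exceeded that of Kdr in each A-iSCs library.

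Tek encodes the angiopoietin receptor that stabilises vessels (ENSMUSG00000006386, chromosome 4: 94739289 to 94874976, plus strand). It was at 0.165, 0.136 and 0.183 FPKM in AST, 0.179, 0.0536 and 0.0396 in A-iSCs, 0.122, 0.251 and 0.0773 in P56-NSC. In P0-NSC the libraries were at 3.66, 2.88 and 3.57. Only the P0-NSC libraries stood apart, and the other 3 groups overlapped at 5 to 19 reads per library. P0-NSC was 20.9-fold higher than AST (log2 difference 1.91 ± 0.10, limma adjusted p = 4.74e-09) and 22.4-fold higher than P56-NSC (-1.92 ± 0.10 for P56-NSC against P0-NSC, adjusted p = 6.51e-09). No comparison among the other groups was called, at limma adjusted p = 0.435 to 0.885. Under quantile normalization Tek was called lower than in AST in A-iSCs (limma adjusted p = 0.0217) and in P56-NSC (0.00921).

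Egfl7 encodes a secreted factor of endothelial cells and is the host gene of a microRNA precursor, Mir126a (ENSMUSG00000026921, chromosome 2: 26580014 to 26593120, plus strand). It was at 0.383, 0.482 and 0.406 FPKM in AST, 0.291, 0.1997 and 0.385 in A-iSCs, 0.804, 0.922 and 1.02 in P56-NSC. The P0-NSC libraries were at 6.73, 5.95 and 6.14. The 2 NSC groups did not overlap each other or the rest, and A-iSCs overlapped AST. P0-NSC was higher than AST (log2 difference 2.35 ± 0.09, limma adjusted p = 3.54e-10), and P56-NSC by 0.43 ± 0.09 (adjusted p = 0.000729). Of these, the P56-NSC difference turned to -0.0433 under quantile normalization. The locus overlaps Gm20532 and Mir126a on the same strand and Agpat2 and Mir126b on the other, with 459 exon bases shared, and the library kit does not mark strand, so that some of its reads cannot be assigned to Egfl7 with certainty. Mir126a and Mir126b were listed at 0 in all libraries.

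Ly6c1 encodes a surface protein of mouse brain endothelium that is also found on some leukocytes (ENSMUSG00000079018, chromosome 15: 75044018 to 75048830, minus strand). It was at 1.14, 1.56 and 0.706 FPKM in AST, 1.12, 0.953 and 0.645 in A-iSCs, 1.55, 1.34 and 1.48 in P56-NSC. In P0-NSC the libraries were at 3.88, 3.20 and 3.64. P0-NSC lay above all other libraries, and the AST libraries overlapped those of both A-iSCs and P56-NSC. It was higher in P0-NSC than in AST (log2 difference 1.12 ± 0.14, limma adjusted p = 1.83e-05) and 2.45-fold higher than in P56-NSC. A-iSCs were lower than P56-NSC (-0.37 ± 0.14, limma adjusted p = 0.0392), but were not called so in 12 of 25 other settings. Of the 50-base stretches of its transcripts 32.8% also occur in Ly6c2, Ly6a or Ly6i, and of the 100-base stretches 10.1%, in Ly6c2 or Ly6a. Reads of these paralogs could thus be counted with it, and its level is uncertain. Ly6c2 itself did not exceed 0.288 FPKM in any library, and the levels of Ly6a and Ly6i are not given here.

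Slco1a4 encodes an organic anion transporter of the blood-brain barrier (ENSMUSG00000030237, chromosome 6: 141805440 to 141856199, minus strand). It was at 1.54, 1.16 and 1.44 FPKM in AST, 0.572, 0.433 and 0.512 in A-iSCs, 1.01, 0.797 and 1.07 in P56-NSC. The P0-NSC libraries were at 1.68, 0.932 and 1.21. A-iSCs lay below all other groups, and P0-NSC overlapped both AST and P56-NSC. The difference of P0-NSC against AST was -0.07 ± 0.12 (limma adjusted p = 0.591), with a positive sign in 4 other settings. A-iSCs were lower than AST (-0.66 ± 0.12, limma adjusted p = 0.000556), P0-NSC (-0.58 ± 0.12, adjusted p = 0.00102) and P56-NSC (-0.38 ± 0.12, adjusted p = 0.016, ended in 7 of 25 other settings). Its paralog Slco1a5 was at 13.2, 12.6 and 14.6 FPKM in AST, 2.15 to 2.34 in A-iSCs and at most 0.458 in every NSC library, and 1.61% of the 50-base stretches of Slco1a4 transcripts occur in Slco1a5 or other genes. How far reads of Slco1a5 entered the values of Slco1a4 was not tested.

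The comparison of A-iSCs with AST set the cultures after 5 days in spheres against the starting astrocytes. In bulk RNA a changed share of cell types and a changed level per cell cannot be told apart. By limma 0 of the 9 genes were higher in A-iSCs, also at an unadjusted p below 0.05, and 3 were lower (Kdr, Esam and Slco1a4). The background over all genes was 28.1% for higher and 30.8% for lower in A-iSCs. With voom on the recovered reads 2 of the 9 were higher, Pecam1 and Flt1, and 3 lower. Summed over the 9 genes the level was 8.28 to 8.94 FPKM in AST and 3.15 to 4.55 in A-iSCs, and the median ratio of A-iSCs to AST was 0.689. Without AST 2 and A-iSCs 3, libraries that stood apart within their groups, 0 were higher and 3 lower.

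Against AST, P56-NSC had 3 of the 9 genes higher (Cldn5, Pecam1 and Egfl7) and 3 lower (Flt1, Kdr and Esam), where 37.1% and 37.0% of all genes tested were called. Under quantile normalization 1 was higher and 5 were lower. The members thus went in both directions, with a median ratio of 0.932, and their sum was 6.67 to 7.76 FPKM. In P0-NSC 8 of 9 genes were higher than in AST, beside 35.9% of all genes tested, and 0 were lower, beside 38.3%. Of the 8, Pecam1 and Tek passed the filter through P0-NSC alone, which set their direction. Cldn5 and Egfl7 passed it through the NSC groups. The count of 0 lower genes held for limma at an unadjusted p below 0.05 and for voom, and was 1 (Slco1a4) under quantile normalization. The median ratio was 3.41, and the sum was 83.8 to 89.0 FPKM, of which Cldn5 made up the larger part. In bulk RNA, a larger share of endothelial cells and more RNA of these genes per cell cannot be told apart. The comparisons with AST share its 3 libraries.

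**Figure D2:**
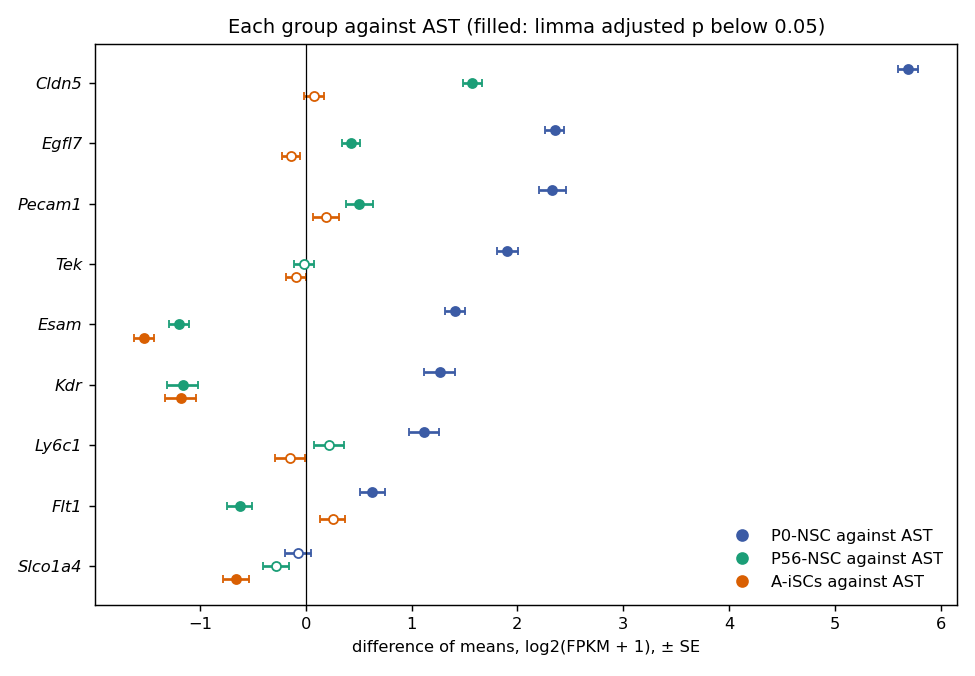
Difference of means on the log2(FPKM + 1) scale (x axis) of the 9 endothelial genes (y axis) in A-iSCs, P56-NSC and P0-NSC against AST, with bars of 1 standard error. Filled points passed the limma threshold. All P0-NSC points but that of Slco1a4 are filled and above 0, from 0.63 for Flt1 to 5.69 for Cldn5, while filled points of A-iSCs are all below 0.

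Set against P56-NSC, A-iSCs had 6 of the 9 genes lower (Cldn5, Pecam1, Esam, Ly6c1, Slco1a4 and Egfl7) and Flt1 higher, where 31.3% and 31.5% of all genes tested were called. Of the 7 calls, 3 were left under quantile normalization or total-read scaling. All 9 genes were lower in A-iSCs than in P0-NSC, beside 34.7% of all genes tested (32.6% were higher), from -0.38 ± 0.12 for Flt1 (limma adjusted p = 0.0143, ended in 6 of 24 other settings) to -5.62 ± 0.09 for Cldn5 (limma adjusted p = 3.39e-12). In P56-NSC 8 of 9 genes were lower than in P0-NSC by limma, beside 33.9% of all genes tested, and 0 were higher, beside 35.3%, as at an unadjusted p below 0.05 and by voom. The exception was Slco1a4 (-0.20 ± 0.12, limma adjusted p = 0.150). In the comparisons with P0-NSC the direction of Pecam1 and Tek was set by the filter, which they passed through P0-NSC alone. Cldn5 and Egfl7 passed it through the NSC groups. The median ratio of P0-NSC to P56-NSC was 9.30, and the ratios ran from 1.33 for Slco1a4 to 25.5 for Cldn5.

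Within P0-NSC the genes did not vary in step with Cldn5. P0-NSC 2 was the lowest of the 3 libraries for 8 of the 9 genes, as it was for 34.3% of all genes tested, and the highest for Cldn5. Its level was 73.1% of the group mean for Slco1a4, 73.8% for Pecam1, 80.3% for Kdr, 94.8% for Egfl7 and 105% for Cldn5. The coefficient of variation over the 3 libraries was smallest for Cldn5 (4.41%) and largest for Slco1a4 (29.8%). The same library had the lowest sums of red blood cell markers (163 FPKM, against 255 and 338) and of choroid plexus markers (742, against 3826 and 2306), whose part in this was not tested.

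Among other genes of endothelial identity, those tested were mostly higher in P0-NSC. Of 19 such genes, 17 were tested in P0-NSC against AST, with 14 higher and 2 lower and a median log2 difference of 1.27, beside -0.04 over all genes tested, of which 35.9% were higher and 38.3% lower. Of the 17, 7 reached 1 FPKM in the P0-NSC libraries alone (Vwf, Robo4, Nos3, Icam2, Clec14a, Mmrn2 and Adgrl4) and so had to differ in order to be tested. Cdh5, the adhesion molecule of endothelial adherens junctions, was at 2.28 ± 0.312 FPKM in AST, 0.156 ± 0.0604 in A-iSCs, 0.243 ± 0.0304 in P56-NSC and 10.1 ± 1.35 in P0-NSC. Its order of groups was that of Esam and Kdr, with AST above A-iSCs and P56-NSC. Ramp2, a partner of the adrenomedullin receptor, went from 0.443 ± 0.150 FPKM in AST to 8.27 ± 0.744 in P0-NSC, and Cd93 from 0.142 ± 0.0614 to 4.84 ± 0.941. S1pr1, a sphingosine 1-phosphate receptor that astrocytes also make, was instead highest in P56-NSC (161 ± 4.004 FPKM, against 14.1 ± 0.871 in AST and 14.8 ± 1.26 in P0-NSC). Emcn and Ptprb did not pass the filter.

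For the identity list in A-iSCs against AST, 4 were higher and 8 lower (median 0.03), beside 28.1% and 30.8% of all genes tested. In P56-NSC against AST these were 6 and 7 (median 0.07), beside 37.1% and 37.0%. Cdh5 (-1.50 ± 0.11, limma adjusted p = 2.19e-07), the endoglin gene Eng (-1.28 ± 0.16) and Cd34 (-1.21 ± 0.10) fell in A-iSCs, and S1pr1 rose (2.17 ± 0.12). P56-NSC against P0-NSC gave 1 higher and 15 lower (median -1.22), beside 35.3% and 33.9% of all genes tested. A-iSCs against P0-NSC gave the same counts (median -1.40), beside 32.6% and 34.7%. In these comparisons with P0-NSC, the 7 genes that passed the filter through P0-NSC alone had to lie lower in the other group. A-iSCs against P56-NSC gave 3 higher and 6 lower, beside 31.5% and 31.3%. Podxl was higher in A-iSCs (4.61 ± 0.614 against 0.808 ± 0.0665 FPKM) and Ecscr lower (0.343 ± 0.0579 against 4.15 ± 0.287).

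Endothelial transcription factor genes, 11 of 12 tested, were higher in P0-NSC than in AST for 8 and lower for 2 (median 0.87), beside 35.9% and 38.3% of all genes tested. Erg, Sox18, Foxq1 and Lef1 passed the filter through P0-NSC alone, so these 4 had to differ as well. Foxf2, a factor of brain vessels, was at 1.36 ± 0.0735 FPKM in AST, 0.0993 ± 0.0450 in A-iSCs, 0.189 ± 0.106 in P56-NSC and 5.00 ± 0.408 in P0-NSC. Elk3, an ETS factor, had its highest level in AST (29.5 ± 2.37 FPKM) and was lower in P0-NSC (5.12 ± 0.142), A-iSCs (12.5 ± 1.04) and P56-NSC (2.63 ± 0.317). In A-iSCs against AST 5 of the 11 rose and 5 fell, beside 28.1% and 30.8% of all genes tested. Those with the largest rises were Lmo2 (2.76 ± 0.642 to 19.8 ± 2.24 FPKM) and Fli1 (0.746 ± 0.0405 to 4.80 ± 0.643), which blood cells also express. In the same A-iSCs libraries the 10 microglia and macrophage markers summed to 2218 to 3233 FPKM, against 195 to 249 in AST. All 10 were higher, beside 28.1% of all genes tested, and none was at 0 in all libraries of either group. The part of such cells in the rise of Lmo2 and Fli1 was not tested. Sox17, without a read in AST and A-iSCs, did not pass the filter.

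**Figure D3:**
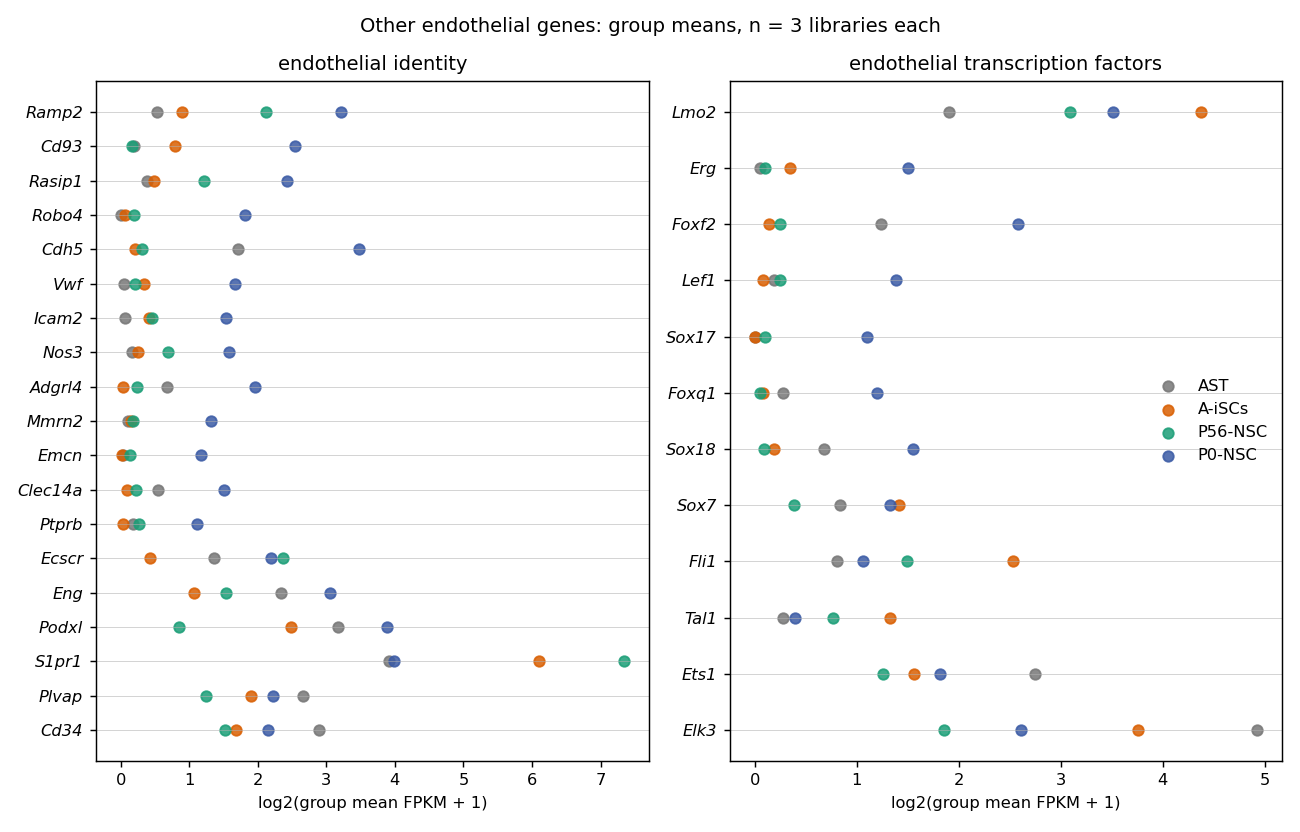
Group means as log2(mean FPKM + 1) (x axis) of the genes listed for endothelial identity and endothelial transcription factors (y axis), 3 libraries per group, genes ordered by P0-NSC minus AST. P0-NSC has the highest mean for 15 of 19 identity genes and for 6 of 12 transcription factor genes, against 26.4% of all genes tested. For 7 identity genes and 4 factor genes, which passed the filter through P0-NSC alone, this was set by the filter. Emcn, Ptprb and Sox17 are shown but were not tested.

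The ligands and partner receptors of Flt1, Kdr and Tek went in both directions. Of 10 tested in P0-NSC against AST, 4 were higher and 3 lower (median 0.02), beside 35.9% and 38.3% of all genes tested. Tie1, the partner receptor of Tek, went from 0.01003 ± 0.0174 FPKM in AST to 6.15 ± 0.900 in P0-NSC, the only group through which it could be tested, and the VEGF co-receptor gene Nrp2 from 5.40 ± 0.871 to 22.4 ± 1.69. In A-iSCs against AST 2 rose and 4 fell, beside 28.1% and 30.8% of all genes tested. Vegfa, the ligand of both VEGF receptors, rose from 15.7 ± 1.33 to 52.6 ± 18.3 FPKM and Angpt1, the activating ligand of Tek, from 1.37 ± 0.178 to 6.27 ± 3.81. Angpt2, its context-dependent antagonist, fell from 10.02 ± 1.37 to 1.08 ± 0.106 FPKM, and Flt4, the receptor of lymphatic vessels, from 1.59 ± 0.317 to 0.0874 ± 0.0598. P56-NSC against AST gave 3 higher and 6 lower, beside 37.1% and 37.0% of all genes tested. There Angpt2 was at 0.142 ± 0.0363 FPKM and Vegfb at 70.8 ± 4.64 against 21.2 ± 4.43.

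Tight junction genes other than Cldn5 went in both directions. Of 8 tested in P0-NSC against AST, 3 were higher and 5 lower (median -0.78), beside 35.9% and 38.3% of all genes tested. Jam2 fell from 47.3 ± 2.27 to 8.88 ± 0.644 FPKM. Lsr, the lipolysis-stimulated receptor of tricellular junctions, went from 0.299 ± 0.0251 to 4.39 ± 0.756. Lsr and Cgn passed the filter through P0-NSC alone. Ocln, the occludin gene, was at 0.261 ± 0.0821 FPKM in AST, 1.37 ± 0.709 in A-iSCs and 5.81 ± 0.882 in P56-NSC. In A-iSCs against AST 2 of 8 were higher and 3 lower, beside 28.1% and 30.8% of all genes tested. In P56-NSC against AST these were 4 and 3, beside 37.1% and 37.0%. Epithelial and glial cells also use many of these genes.

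Blood-brain barrier transport genes gave 4 higher and 6 lower of 11 in P0-NSC against AST (median -0.41), beside 35.9% and 38.3% of all genes tested. Slc38a5, a glutamine transporter, went from 0.0153 ± 0.0133 to 7.85 ± 0.950 FPKM, and was at 0.118 ± 0.0803 in P56-NSC. It and Abcb1a were tested through their level in P0-NSC alone. Mfsd2a, the lipid transporter of the barrier, had its highest level in AST (61.6 ± 2.73 FPKM) and was at 10.99 ± 3.11 in A-iSCs, 43.2 ± 0.530 in P56-NSC and 11.7 ± 0.390 in P0-NSC. The efflux pump gene Abcg2 was also highest in AST (8.501 ± 1.48 FPKM, against 1.35 ± 0.232 in A-iSCs and 1.14 ± 0.0159 in P56-NSC). Like Slco1a4, both of these had their highest mean in AST, where Cldn5 had no reads.

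Genes of the Wnt signal that sets up the barrier gave 3 higher and 4 lower of 9 in P0-NSC against AST (median -0.07). The shares over all genes tested were 35.9% and 38.3%. In A-iSCs against AST they gave 4 and 4, beside 28.1% and 30.8%. Apcdd1, a Wnt inhibitor and target in brain endothelium, went from 0.391 ± 0.0513 FPKM in AST to 1.75 ± 0.725 in A-iSCs, 2.36 ± 0.334 in P56-NSC and 20.9 ± 2.38 in P0-NSC. The ligand genes Wnt7b and Ndp rose in A-iSCs, to 9.79 ± 3.35 and 16.7 ± 4.69 FPKM from 1.49 ± 0.0835 and 3.06 ± 0.277. Adgra2, the endothelial co-receptor of Wnt7 ligands, fell from 6.83 ± 1.18 to 0.558 ± 0.0305 FPKM.

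Genes with the most similar profile were sought by the root mean square difference of log2(FPKM + 1), centred on the mean of the 12 libraries, which share depth and scaling. Nearest to Cldn5 was Vtn (difference 0.353), a vitronectin gene known from brain pericytes, at 0.0525 ± 0.0253 FPKM in AST and 56.7 ± 5.18 in P0-NSC, followed by the neuronal transcription factor gene Neurod6 (0.394). Esam had Foxf2 (0.213) and Cdh5 (0.215), and Kdr had Foxf2 (0.153). For Pecam1 these were Cbfa2t3 (0.102) and Adgrf5 (0.116), for Egfl7 F13a1 (0.116) and Hecw1 (0.118), and for Tek Mcidas (0.0882) and Slc35f2 (0.112). Flt1 had Zfp655 (0.0944) and Rnf2 (0.0964), Ly6c1 had Slc17a8 (0.158), and Slco1a4 had Irs2 (0.124) and Tlk2 (0.141). Endothelial and neuronal genes stood side by side among them, and the measure follows the groups as a whole. The neighbours named for Pecam1, Egfl7, Tek and Ly6c1 had means below 1 FPKM in every group but P0-NSC. Genes of such a shape enter through their P0-NSC level, as Pecam1 and Tek did, so this likeness is partly set by the filter.

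Among markers of other cells found around vessels, the mural cell sum was highest in P0-NSC and the fibroblast sum in AST. The 11 mural cell markers summed to 128 to 144 FPKM in P0-NSC, 16.2 to 22.4 in AST, 12.4 to 13.9 in A-iSCs and 20.9 to 25.3 in P56-NSC. Of the 11, of which Des and Myh11 were not tested, 8 had their highest mean in P0-NSC, against 26.4% of all genes tested. Of 9 tested in P0-NSC against AST 6 were higher and 1 lower, beside 35.9% and 38.3% of all genes tested. Among the 9, Kcnj8, Abcc9 and Higd1b passed the filter through P0-NSC alone, and Higd1b was at 0 in all AST libraries. Rgs5, a pericyte gene, was at 38.6 ± 3.83 FPKM in P0-NSC and 0.311 ± 0.107 in AST, while Pdgfrb, the receptor gene of mural cells and fibroblasts, was at 12.2 ± 0.717 and 11.1 ± 1.58. Fibroblast markers, 6 genes, summed to 117 to 131 FPKM in P0-NSC, but to 147 to 198 in AST, 9.96 to 11.8 in A-iSCs and 24.8 to 27.6 in P56-NSC. The sum in AST was mostly Col1a1, a collagen gene, at 131 to 178 FPKM. In P0-NSC against AST 5 of the 6 fibroblast markers were higher (median log2 difference 2.89), and Col1a1 was lower, beside the same shares. Neuron markers were higher in P0-NSC than in AST as well, 5 of 5 (median log2 difference 3.86), beside 35.9% of all genes tested. The part of mural cells, fibroblasts and neurons in the levels of the 9 genes was not tested.

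Red blood cell markers separated the NSC groups from the others. Among the 9 endothelial genes, Cldn5, Pecam1 and Egfl7 did so too, and Flt1, Kdr, Tek, Esam, Ly6c1 and Slco1a4 did not. The 5 genes summed to 163 to 338 FPKM in P0-NSC and 360.0 to 565 in P56-NSC, and to at most 0.143 in AST and 0.548 in A-iSCs, with Hbb-bs, Hbb-bt and Hba-a2 at 0 in all AST libraries. Choroid plexus markers were at 742 to 3826 FPKM in P0-NSC and 1475 to 3162 in P56-NSC, against 5.44 to 7.20 in AST and 2.79 to 3.27 in A-iSCs. In the NSC groups most of this sum was Ttr, at 725 to 3747 FPKM in P0-NSC and 1452 to 3120 in P56-NSC. Kl, another of these markers, was at 0.114 to 0.515 FPKM in P0-NSC and 5.39 to 9.70 in P56-NSC. The 9 monocyte, lymphocyte and platelet markers, cells that also use Pecam1 or Ly6c1, summed to 22.1 to 25.01 FPKM in P0-NSC, 3.63 to 6.44 in AST, 25.5 to 39.5 in A-iSCs and 2.06 to 10.2 in P56-NSC, and Cd3e was at 0 in all A-iSCs libraries. In P0-NSC and A-iSCs most of this sum was Pf4, a platelet gene that macrophages can also make, at 20.2 to 23.6 and 23.3 to 35.7 FPKM, and 7 of the 9 markers did not pass the filter. The part of these cells was not tested.

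**Figure D4:**
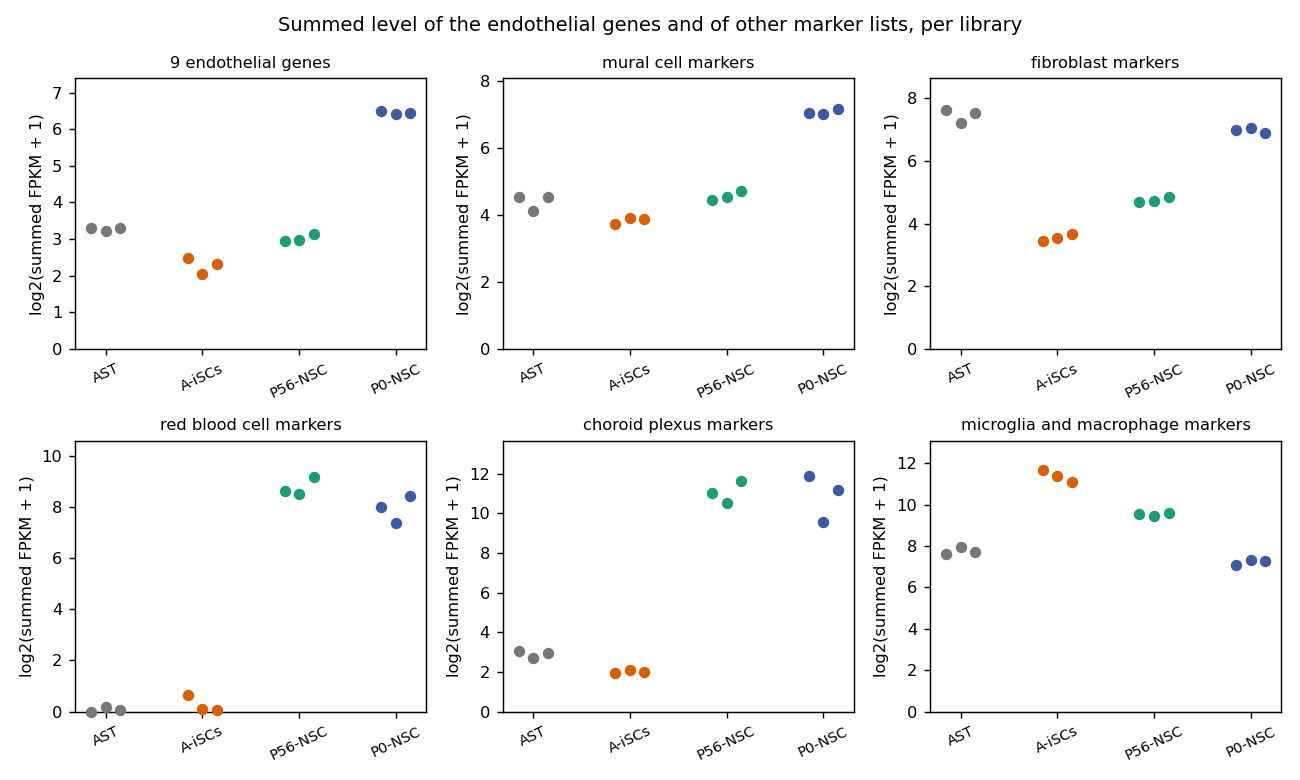
Summed level per library as log2(summed FPKM + 1) (y axis, from 0) of the 9 endothelial genes and of 5 marker lists, by group (x axis), with points as libraries. The endothelial and mural cell sums are highest in P0-NSC, the red blood cell and choroid plexus sums are high in both NSC groups, and the microglia sum is highest in A-iSCs.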

How the data were processed

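RNA sequencing of 12 libraries was deposited as 1 table of FPKM values per gene, normalized by the authors. Per the labels' protocols, 3 µg of Trizol-extracted RNA per sample and a kit that does not mark strand were used. Bowtie 0.12.2 and the builds mm9 and mm8 appear in the submitters' processing notes. In the table the 9 genes have their GRCm38 coordinates (GENCODE M21), and the counter was not given in the sources used here. Multiplied by gene length, 100% of the FPKM values of each library were whole reads to within 0.01. The authors' values hold a further scaling between libraries: the total implied by the FPKM was 0.744 to 1.2183 times the recovered reads. The 441 entries without a gene name (0.0957% to 0.156% of reads) were left out.

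Groups and replicate numbers came from the sample titles. The test was limma 3.58.1 (R 4.3.3, empirical Bayes with a trend) on log2(FPKM + 1), for genes that reached 1 FPKM in 3 libraries, and p-values were adjusted by Benjamini-Hochberg over all 15747 genes tested, in each of 6 comparisons. Intervals and floors from reads cover counting error only. The test was checked on simulated data for P56-NSC against P0-NSC (13520 genes, 200 changed). It recovered 95% of genes changed by a log2 of 1 and 99% of those changed by 2, with 6.73% false calls. In the real libraries this comparison called far more, 35.3% of the 15747 genes tested as higher and 33.9% as lower. Of the 9 endothelial genes, 2 had means of 1 FPKM or more in P56-NSC. Recovery at the lower levels of the others was not tested separately. Python 3.11.15 and matplotlib 3.10.9 made tables and figures.

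The 9 genes, the 6 pathway lists and the 10 marker lists were chosen with earlier results of these data known. All 9 genes are named in every comparison. From each pathway list the rule took up to 4 called genes with the largest change in A-iSCs and in P56-NSC against AST and up to 2 in the other comparisons (fewer are given here), and for each of the 9 the 2 genes with the most similar profile, passing over predicted genes and pseudogenes (some are not reported here). Alternatives were other pseudocounts (0.1 and 0.25), filters, scalings, voom on recovered reads, subsets of the libraries and a replicate block.

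Same-numbered libraries of different groups did not deviate together throughout. For AST with A-iSCs the correlations of deviations were -0.395, 0.342 and 0.442 for numbers 1, 2 and 3. With different numbers, AST 2 was at 0.523 with A-iSCs 1 and at -0.560 with A-iSCs 3. The numbers were therefore not used as pairs.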

Additional observations from a re-analysis of the deposited data

How the results depend on the processing

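The count of all genes called stayed within 1.5 times of its main value in each comparison and setting tried. The number of the 9 endothelial genes called did so too, with these exceptions. In A-iSCs against AST it was 3, and 5 under quantile normalization (Tek and Egfl7 added, both lower) and by voom (Pecam1 and Flt1 added, both higher). A filter of 1 FPKM in at least 6 libraries, under which fewer of the 9 were tested, gave 3 in place of 6 for P56-NSC against AST, 4 in place of 8 for P0-NSC against AST, 4 in place of 7 for A-iSCs against P56-NSC, 5 in place of 9 for A-iSCs against P0-NSC and 4 in place of 8 for P56-NSC against P0-NSC. A-iSCs against P56-NSC gave 3 under quantile normalization, 3 with total-read scaling and 4 by voom. Leaving out 1 library gave 4 to 7 in that comparison (4 without A-iSCs 2, P56-NSC 1 or P56-NSC 3), 3 to 4 in A-iSCs against AST, 5 to 8 in P56-NSC against AST, 6 to 8 in P0-NSC against AST, 6 to 9 in A-iSCs against P0-NSC and 6 to 8 in P56-NSC against P0-NSC. Without a P0-NSC library, Pecam1 and Tek do not pass the filter and have no value. For the other changes the cause was not tested.

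Signs turned as follows (log2 differences). Under quantile normalization Egfl7 in P56-NSC against AST, a called difference, was at -0.0433, Ly6c1 there at -0.14, and Kdr and Tek in A-iSCs against P56-NSC at 0.19 and 0.0307. The other turned signs were of differences that were not called. Slco1a4 in P0-NSC against AST was at 0.0921 with total-read scaling and 0.14 by voom, and from -0.20 to 0.0369 when 1 library was left out, the latter without P0-NSC 2. Kdr in A-iSCs against P56-NSC was at 0.16 with total-read scaling, 0.53 by voom, and from -0.0730 to 0.0617 when 1 library was left out (positive without A-iSCs 2 or P56-NSC 3). Tek in P56-NSC against AST was from -0.0784 to 0.0295 when 1 library was left out (positive without P56-NSC 1 or 3). With AST 2, A-iSCs 1 and A-iSCs 2 as the only libraries beside the NSC groups, Ly6c1 and Tek in P56-NSC against AST were at -0.0600 and 0.0150, and Slco1a4 in P0-NSC against AST at 0.0613. With AST 1, AST 3 and A-iSCs 3 instead, Kdr in A-iSCs against P56-NSC was at 0.0485. Each of these fits holds a lone library assumed to vary like the other groups. Without AST 2 and A-iSCs 3, Ly6c1 in A-iSCs against AST was at 0.0927.

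With total-read scaling the higher share among called genes went from 47.7% to 61.0% in A-iSCs against AST, 50.1% to 38.7% in P56-NSC against AST, 48.4% to 58.8% in P0-NSC against AST, 50.1% to 73.4% in A-iSCs against P56-NSC and 51.0% to 27.3% in P56-NSC against P0-NSC. Same-numbered libraries had correlated deviations over 0.1 in 3 of 18 pairs (-0.395 to 0.442), against 7 of 36 with different numbers. With the replicate block 4, 7, 8, 6, 9 and 8 of the 9 genes were called in the 6 comparisons, in the order of A-iSCs, P56-NSC and P0-NSC against AST, A-iSCs against P56-NSC and P0-NSC, and P56-NSC against P0-NSC. Flt1 in A-iSCs against AST (limma adjusted p = 0.0445) and Slco1a4 in P56-NSC against AST (0.0195) were added by the block and Pecam1 in A-iSCs against P56-NSC was lost (0.0546). Depth limits Cldn5, Tek and Esam in A-iSCs, Cldn5 and Pecam1 in AST and Tek in P56-NSC, with libraries of 10 reads or fewer.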
